A study of Mus musculus with 6 samples.

Results

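Eda signalling and the transcription factors of hair placodes and follicles were followed here through 10 genes: Eda, Edar, Edaradd, Lef1, Dkk4, Lhx2, Sox9, Msx2, Dlx3 and Cux1. All probe sets that the platform annotation maps to exactly 1 of these symbols were taken, which gave 32 of the 45101 probe sets on the array, for 10 of the 18193 genes it names. The samples were 3 of skin RNA labelled Tcfap2c mutant and 3 labelled control, all from mouse embryos at day 16.5, each hybridised to 1 Affymetrix array. Tcfap2c, now Tfap2c, encodes the transcription factor AP-2 gamma, and the comparison asks how embryonic skin expression differs when it is mutated. The labels give no allele, strain, litter, promoter or Cre driver, nor whether each sample was a separate embryo, and a p-value here reflects the spread among 6 RNA samples, which may be technical. The description of the control samples also mentions the mutation, so the grouping rests on titles and source names, 1 of which spells the mutated gene Tcfap2. Values are Affymetrix MAS5 signals, scaled by array to a common mean, and differences are given on the log2(signal + 24.4) scale, mutant minus control.

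Eda is a membrane-anchored ligand of the tumour necrosis factor family that is made in embryonic epidermis and released by cleavage. It binds Edar on placode cells, and Edar recruits the adaptor Edaradd, which passes the signal through TRAF proteins and IkB kinases to NF-kB. Loss of ligand, receptor or adaptor in mice prevents the first wave of hair placodes and gives one shared phenotype. Wnt signalling through beta-catenin and Lef1 acts in the same placodes, and Dkk4 is a secreted Wnt inhibitor that marks them. Lhx2, Sox9, Msx2, Dlx3 and Cux1 act from the placode to the growing follicle.

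Mutant sample 1 stood apart from the other 5, and the differences of the tested member probe sets are therefore also given without it. The summed signal of 8 decidual and uterine marker genes was 52731 in that sample and between 1235 and 1524 in mutant samples 2 and 3, against 1200 to 1438 in control samples. Prap1 (32479) and Prl8a2 made up most of the 52731, and Pgr, Esr1, Hoxa11 and Hoxa10 were also highest in mutant sample 1. Wnt7a (95.9) was lowest there, and Cyp11a1 (253) lay within the range of the other samples. Prl8a2, a prolactin-family hormone of the decidua, had a signal of 14204 in mutant sample 1 and 48.2 and 48.6 in the other mutant samples, against 34.8 to 61.2 in control samples. The other 5 samples lay under the filter, at a signal of about 114, so Prl8a2 passed it through mutant sample 1. Among the markers that did not pass, Prl6a1 (352) and Oxtr (220) were highest in mutant sample 1. Prl3c1 (2.18) and Calb1 (6.26) were lowest there, and Ltf (118) lay within the range of the other samples. The 6 smooth muscle markers summed to 59307 in mutant sample 1 and to 8002 and 8422 in the other mutant samples, against 8764 to 10539 in control samples. The 12 basal keratinocyte markers passed the filter in full. They summed to 77206 in mutant sample 1 and 118165 and 100414 in mutant samples 2 and 3, against 98015 to 108389 in control samples. Krt5, Krt14, Krt15, Trp63, Col17a1, Perp and Cdh3 were lowest in mutant sample 1. Itgb4, Dsp, Cdh1 and Epcam were not lowest there, and Itga6 (4259) was highest. Mutant sample 1 thus combined high uterine and smooth muscle sums with the lowest keratinocyte sum, and their part in the results below was not tested. Dermal fibroblast markers were present in every sample (7 genes, summed signal 133283 to 134064 in mutant and 124000 to 141655 in control samples), while the series title names epidermis. Xist, the RNA that coats the inactive X, had a signal of 6732 in mutant sample 1, against 5520 and 6313 in control samples 1 and 2. The other 3 samples read between 67.9 and 119.9. The Y-linked gene Eif2s3y read 4.86 in mutant sample 1 and 40.6 and 9.36 in control samples 1 and 2. It read between 1552 and 1915 in the other 3 samples. The part of uterine tissue in the Xist signal of mutant sample 1 was not tested.

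**Figure D1:**
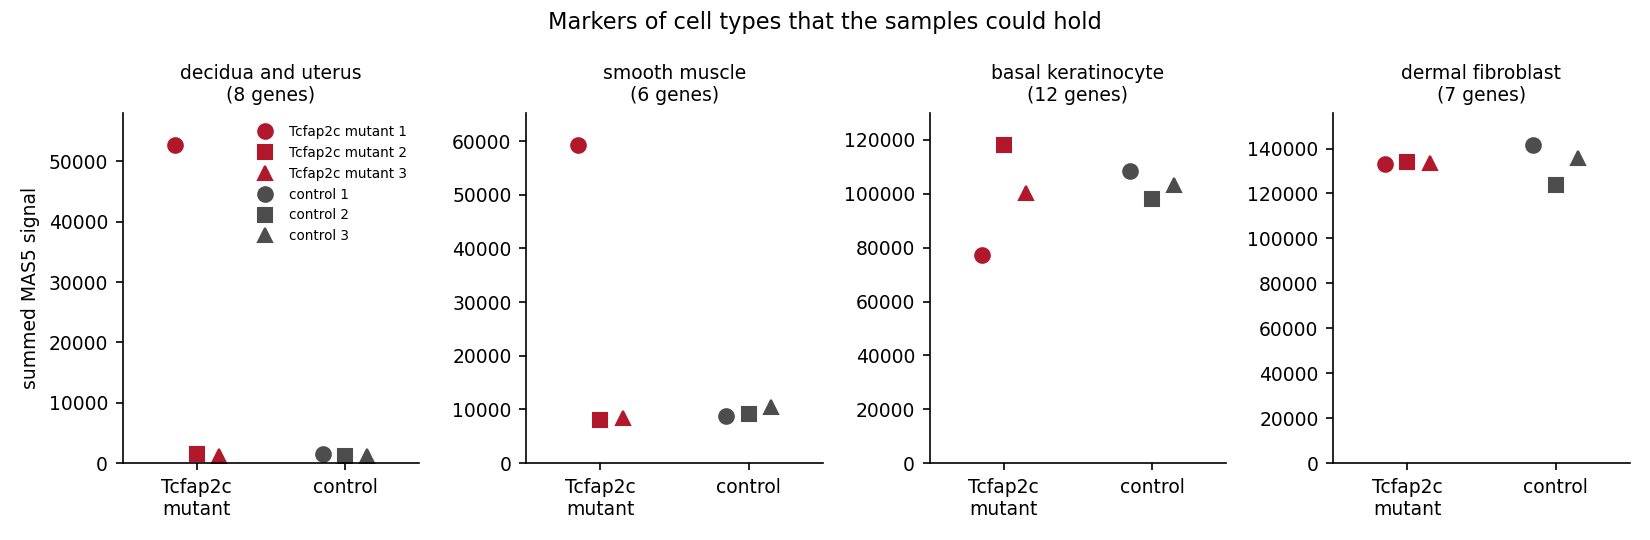
Summed MAS5 signal of the marker genes of 4 tissues that passed the filter. The 3 Tcfap2c mutant samples are red (left) and the 3 control samples grey (right), with 1 point per sample and the symbol giving the sample number. Mutant sample 1 lies at 52731 for decidua and uterus and at 59307 for smooth muscle, far above the other 5, and is the lowest for basal keratinocytes.

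No member of the set passed the test over all probe sets. Of the 32 probe sets, 20 passed the filter on low signal and every one of the 10 genes had at least 1 of them. The other 12 read between 0.625 and 167 and were not tested. The differences of the 20, mutant minus control on the log2 scale, lay between -0.64 for Lhx2 and 0.71 for 1 probe set of Cux1, with 7 above and 13 below 0 and a median of -0.06, against -0.02 over all 22518 probe sets tested. In limma 0 of 20 had an adjusted p under 0.05 (lowest 0.942), where 0.00444% of all probe sets tested did (1 of 22518). At an unadjusted p under 0.05 there were 2 of 20 (10%), the probe sets of Lhx2 and Cux1 just named, against 3.42% of all. The same 2 were the ones whose mutant and control samples did not overlap, against 8.33% of all probe sets. The share of 2 in 20 is near the 8.33% for groups apart and above the 3.42% for the unadjusted p, and it rests on 2 probe sets.

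**Figure D2:**
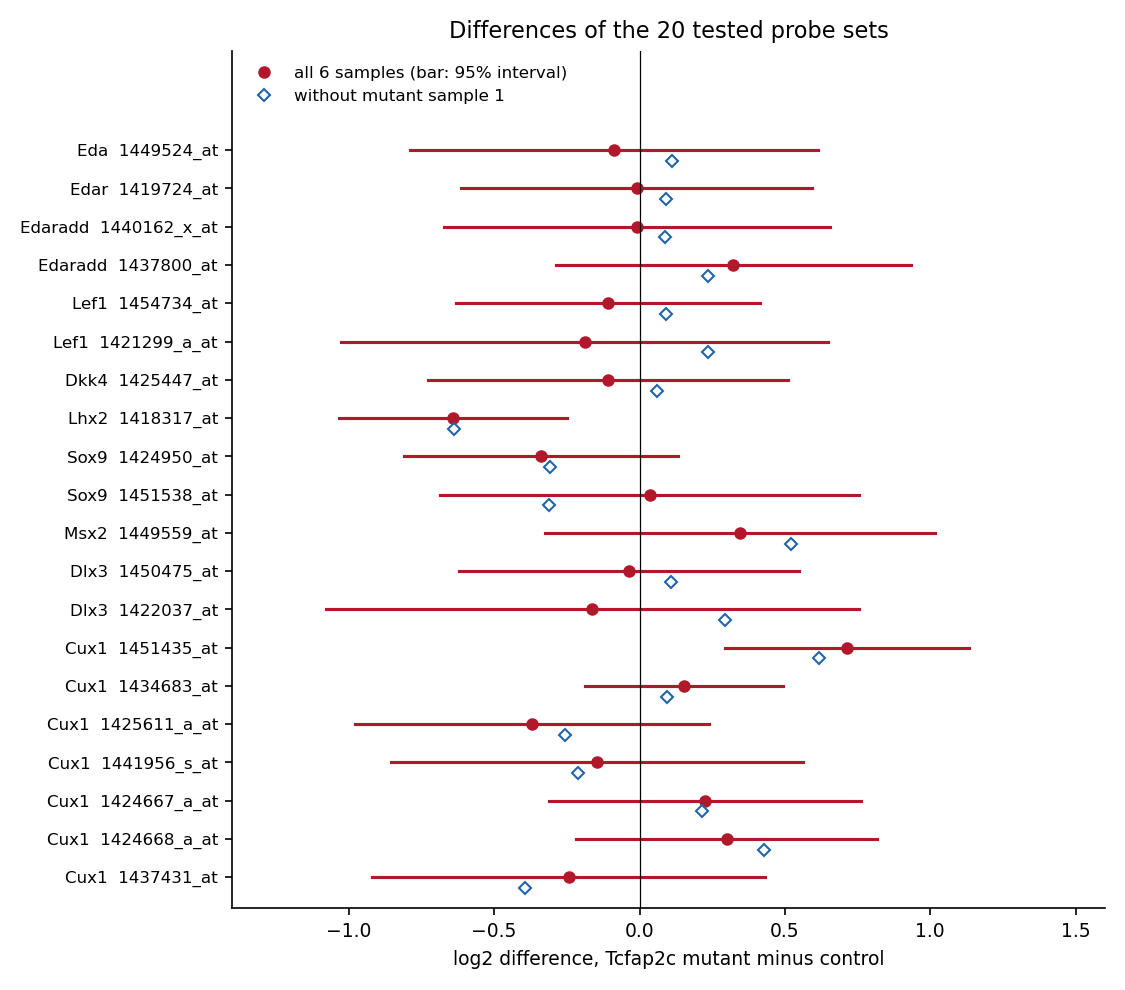
Log2 difference (Tcfap2c mutant minus control) of each of the 20 tested probe sets, with its 95% interval from limma (red) and the difference without mutant sample 1 (blue diamonds, offset downwards). The interval lies wholly below 0 for Lhx2 and wholly above 0 for Cux1 1451435_at and holds 0 for the other 18.

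The precision was set by 3 arrays per group. The 95% intervals of the 20 probe sets reached between 0.34 and 0.92 to each side on the log2 scale, 18 of them held 0, and 15 lay wholly within 1 either way. On this scale 1 is a doubling of signal plus 24.4, not of the signal itself. Without mutant sample 1 the balance of signs turned to 14 above and 6 below 0, with a median of 0.09, against -0.01 over all probe sets. Again 0 of 20 had an adjusted p under 0.05 (lowest 0.418), against 0.173% of all probe sets, and 2 of 20 had an unadjusted p under 0.05, against 7.15%. Groups did not overlap for 3 of 20, against 22.7%. Some members therefore did not keep their direction when that sample was left out.

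Eda, the ligand, had 5 probe sets, of which 1 was tested. Probe set 1449524_at gave signals of 119, 182 and 204 in mutant samples 1, 2 and 3, against 119, 168 and 270 in control samples 1, 2 and 3. The groups overlapped fully, at averages of 168 ± 44 for mutants and 186 ± 77 for controls (SD, n = 3 each). On the log2 scale the difference was -0.09 (SE 0.31, 95% interval -0.79 to 0.62), and it was 0.11 without mutant sample 1. Of the 4 dimmer probe sets, 1451925_at was the single one whose groups did not overlap, at 64.1, 18.5 and 87.6 in mutant samples, against 16.2, 1.82 and 7.56 in control samples. Those signals lie under the filter and were not tested. The 2 dimmest, 1419596_at and 1451877_at, read between 4.77 and 61.3 in mutant and between 3.98 and 40.2 in control samples. Another dim probe set of Eda, 1419597_at, went the other way, with 35.3, 27.7 and 132.7 in mutant samples, against 167, 81.4 and 90.0 in control samples. Eda lies on the X chromosome, where embryos differ in copy number by sex. Within the samples with high Xist (mutant sample 1 against control samples 1 and 2) the difference of 1449524_at was -0.21. Within those with low Xist (mutant samples 2 and 3 against control sample 3) it was -0.44, from 3 samples each and with no test. Each Xist comparison here and below thus has 1 sample on one side, and the only mutant sample with high Xist is mutant sample 1.

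Edar, the receptor, was measured by 1 tested probe set, 1419724_at. Its signals were 170, 258 and 178 in mutant samples, against 278, 196 and 146 in control samples. Mutant and control samples spanned the same range, averaging 202 ± 49 for mutants and 207 ± 66 for controls (SD, n = 3 each). On the log2 scale they differed by -0.01 (SE 0.27, 95% interval -0.61 to 0.59) and 0.09 without mutant sample 1. Within samples of high Xist the difference was -0.41 and within those of low Xist 0.49, each with 1 sample on one side, and its sign was not shared. The second probe set of Edar, 1447498_at, read between 0.625 and 32.7 in all 6 samples and was not tested.

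Edaradd, the adaptor that carries a death domain matching that of Edar, had 5 probe sets, 2 of them tested. The brighter one, 1440162_x_at, gave 534, 797 and 545 in mutant samples, against 654, 918 and 391 in control samples. The highest and the lowest of the 6 values were both control samples, and the log2 difference was -0.01 (SE 0.29, 95% interval -0.67 to 0.65), or 0.09 without mutant sample 1. The other, 1437800_at, gave 152, 164 and 91.7 in mutant samples, against 96.2, 116 and 92.4 in control samples. Mutant samples 1 and 2 were above all control samples and mutant sample 3 was below them, a log2 difference of 0.32 (SE 0.27), or 0.24 without mutant sample 1. The 2 probe sets differed from each other by -0.33 in this difference (exact two-sided permutation p = 0.4). The 3 untested probe sets read between 2.75 and 139.5 in mutant and between 6.76 and 108.9 in control samples. In the ligand, receptor and adaptor together, no tested probe set showed a difference larger than the spread between samples.

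**Figure D3:**
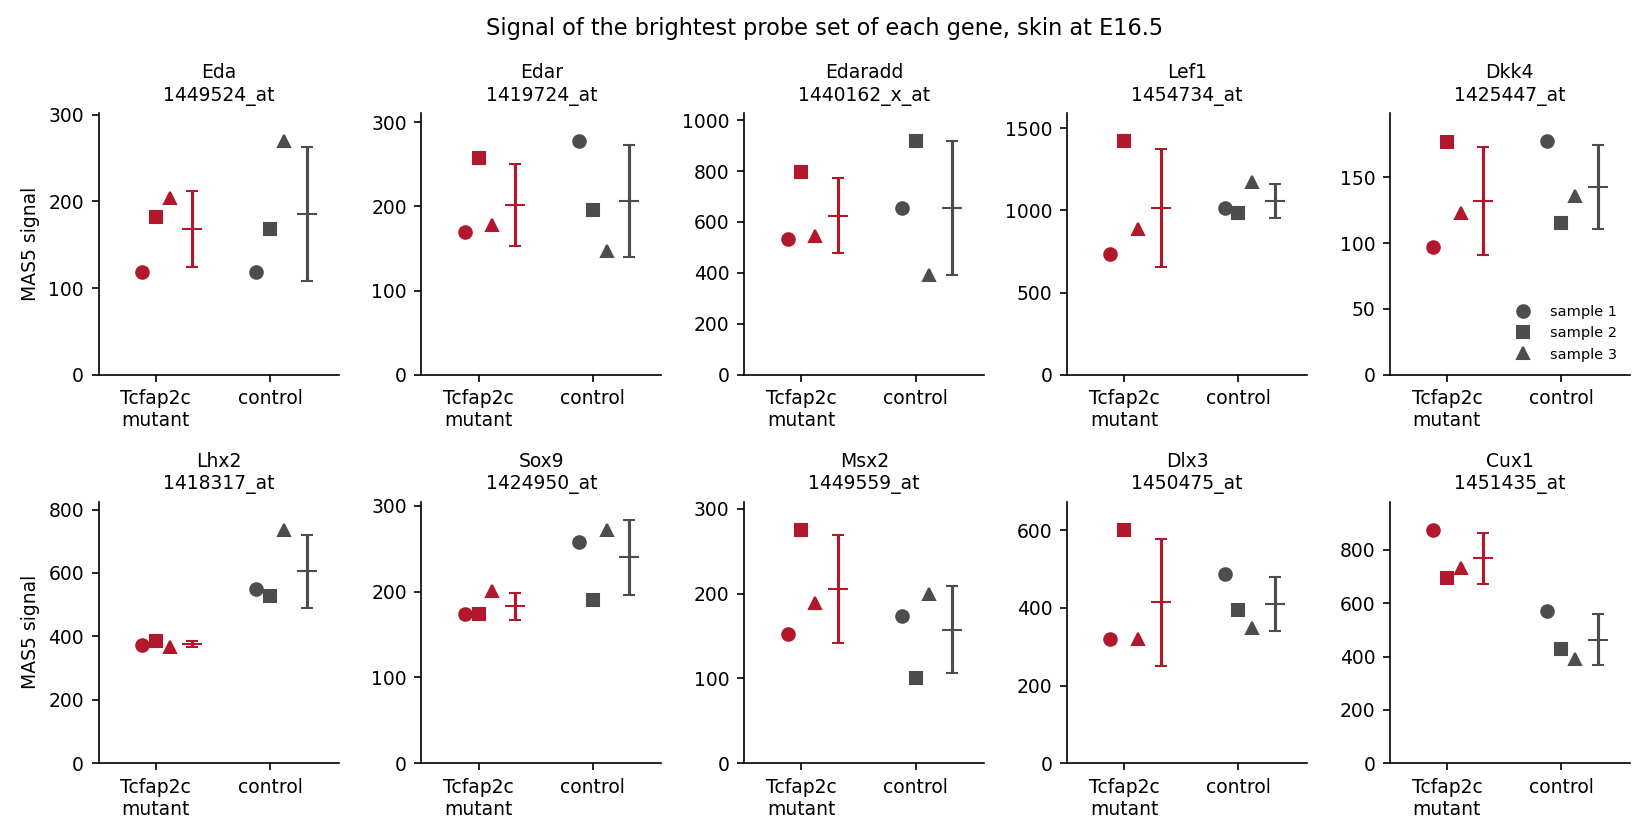
MAS5 signal of the brightest probe set of each of the 10 genes in the 3 Tcfap2c mutant samples (red, left) and the 3 control samples (grey, right), on linear axes that start at 0. Points are samples, with the symbol giving the sample number, and bars are the mean ± SD; the groups are apart for Lhx2 and Cux1 and overlap for the other 8 genes.

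Lef1, the DNA-binding partner of beta-catenin in epidermal and mesenchymal cells of the follicle, was read by 2 tested probe sets. Probe set 1454734_at gave 735, 1423 and 890 in mutant samples, against 1018, 983 and 1174 in control samples. The mutant samples held both the lowest and the highest value, so the wider spread was theirs, at averages of 1016 ± 361 for mutants and 1058 ± 102 for controls (SD, n = 3 each). They differed by -0.11 on the log2 scale (SE 0.23, 95% interval -0.63 to 0.41). Probe set 1421299_a_at gave 94.2, 300 and 227 in mutant samples, against 270, 159 and 241 in control samples, a log2 difference of -0.19 (SE 0.37). Mutant sample 1 was the lowest of the 6 in both, and without it the differences were 0.09 and 0.23. The 2 probe sets differed from each other by 0.08 in this difference (exact two-sided permutation p = 0.8, against a smallest possible p of 0.1 here).

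Dkk4, a placode-restricted Wnt inhibitor that lies downstream of both Wnt and Eda signals in mouse skin, had 1 probe set. Its signals were 96.9, 177 and 123 in mutant samples, against 178, 115 and 136 in control samples. Mutant sample 1 was again the lowest, the groups overlapped, and the log2 difference was -0.11 (SE 0.27, 95% interval -0.73 to 0.51). Without mutant sample 1 it was 0.06. The values do not reach far above the filter, at a signal of about 114, so fold changes on this scale are compressed.

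Lhx2, a LIM-homeodomain factor of placode and follicle progenitor cells, had the lowest difference of the set. Its single probe set, 1418317_at, gave 373, 386 and 366 in mutant samples, against 551, 528 and 737 in control samples. Every mutant sample lay below every control sample, and the mutant values were close to each other. Averages were 375 ± 10 for mutants and 605 ± 115 for controls (SD, n = 3 each). This is a log2 difference of -0.64 (SE 0.17, 95% interval -1.03 to -0.25), or 0.641-fold, with a limma unadjusted p of 0.00495, the 105th smallest of 22518, and an adjusted p of 0.9999. In bulk skin, fewer Lhx2-expressing cells and less Lhx2 RNA per cell cannot be told apart. The difference was -0.64 without mutant sample 1 and -0.50 without control sample 3, the highest sample. It was negative within samples of high Xist (-0.50, with mutant sample 1 as the only mutant). It was also negative within those of low Xist (-0.93, with control sample 3 as the only control).

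Sox9, an HMG-box factor of follicle stem cell precursors and of the outer root sheath, had 3 probe sets, 2 of them tested. Probe set 1424950_at gave 174, 174 and 201 in mutant samples, against 258, 190 and 272 in control samples. Mutant samples 1 and 2 lay below all control samples and mutant sample 3 lay between control samples 2 and 1, a log2 difference of -0.34 (SE 0.21, 95% interval -0.81 to 0.13). Probe set 1451538_at, designed from the same cDNA record, gave 339, 135 and 171 in mutant samples, against 157, 241 and 193 in control samples. Over all 6 samples it differed by 0.03, and by -0.31 once mutant sample 1 was left out, which was its highest sample. Without that sample the first probe set gave -0.31 as well. With all 6 samples the pair differed from each other by -0.37 in this difference (exact two-sided permutation p = 0.5). Sox9 is also made in cartilage, and of 9 cartilage and bone markers 3 passed the filter, with summed signals of 859, 534 and 883 in mutant samples, against 797, 648 and 1126 in control samples. Among these was the cartilage collagen gene Col9a1, at 329, 320 and 592 in mutant samples, against 441, 412 and 744 in control samples, while Col2a1 read 61.9 to 111 in mutant and 6.78 to 128 in control samples and did not pass. The groups overlapped in the sum and in Col9a1, and the part of cartilage in the Sox9 signals was not tested. Uterine glands are another known site of Sox9 in mice, and the uterine markers were high in mutant sample 1, whose part in these Sox9 signals was not tested. The third probe set, 1433889_at, was not tested, at 34.8, 13.2 and 37.5 in mutant samples, against 114, 27.8 and 66.8 in control samples.

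Msx2, a homeodomain factor that follows BMP signals in the placode and the hair matrix, had 1 tested probe set, 1449559_at. It gave 152, 275 and 189 in mutant samples, against 173, 100 and 199 in control samples. Control sample 3 was above 2 of the mutant samples, and the log2 difference was 0.35 (SE 0.30, 95% interval -0.33 to 1.02). Without mutant sample 1 it was 0.52 (adjusted p = 0.78 in limma). The second probe set of Msx2 read between 1.56 and 46.2 and was not tested.

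Dlx3, a distal-less homeodomain factor of the hair matrix and of the upper epidermal layers, had 2 tested probe sets designed from the same cDNA record. Probe set 1450475_at gave 320, 602 and 320 in mutant samples, against 487, 395 and 348 in control samples. Mutant samples 1 and 3 were the lowest and mutant sample 2 the highest of the 6, and the log2 difference was -0.03 (SE 0.26, 95% interval -0.62 to 0.55), or 0.11 without mutant sample 1. Probe set 1422037_at gave 69.5, 172 and 277 in mutant samples, against 235, 157 and 141 in control samples. Its difference was -0.16 (SE 0.40), the least precise of the 20, and 0.30 without mutant sample 1. The pair differed from each other by 0.13 in this difference (exact two-sided permutation p = 1).

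Cux1, a CUT-homeodomain factor of the inner root sheath lineage whose locus makes several transcripts, had 9 probe sets, 7 of them tested. The brightest, 1451435_at, gave 876, 697 and 733 in mutant samples, against 572, 427 and 390 in control samples. All mutant samples lay above all control samples, averaging 769 ± 95 for mutants and 463 ± 96 for controls (SD, n = 3 each). This is a log2 difference of 0.71 (SE 0.19, 95% interval 0.29 to 1.13), or 1.64-fold, with a limma unadjusted p of 0.00397, the 93rd smallest of 22518, and an adjusted p of 0.942. It was 0.62 without mutant sample 1. Within samples of high Xist it was 0.80, with mutant sample 1 as the only mutant. Within those of low Xist it was 0.83, with control sample 3 as the only control.

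The other probe sets of Cux1 did not share this size. The next brightest, 1434683_at, gave 564, 512 and 477 in mutant samples, against 483, 451 and 454 in control samples, a log2 difference of 0.15 with the narrowest interval of the 20 (-0.19 to 0.49). Probe sets 1424667_a_at and 1424668_a_at, designed from the same cDNA record as the brightest, had differences of 0.22 and 0.30. The remaining 3 had negative ones, -0.37 for 1425611_a_at, -0.15 for 1441956_s_at and -0.24 for 1437431_at, and their groups overlapped. Against the brightest, the difference was smaller by between 0.41 and 1.08 in the other 6, with exact two-sided permutation p-values of 0.1 to 0.3. The lowest of these is the smallest that 3 against 3 samples allow, and over the 10 pairs of probe sets compared in all genes its Benjamini-Hochberg adjusted value was 0.25, and the 10 adjusted values lay between 0.25 and 1. Without mutant sample 1 the differences were 0.09 for 1434683_at, 0.22 for 1424667_a_at, 0.43 for 1424668_a_at, -0.25 for 1425611_a_at, -0.21 for 1441956_s_at and -0.39 for 1437431_at. All 6 kept their sign, and the groups of 1424668_a_at were then apart. The mean over all 9 probe sets gave a difference of 0.12. Of the 2 untested probe sets, 1425612_at read 28.5, 25.1 and 37.1 in mutant samples, against 14.1, 18.8 and 8.71 in control samples, apart as well but under the filter. The other, 1437686_x_at, overlapped, at 42.4, 109.8 and 54.3 in mutant samples, against 32.7, 119.3 and 82.4 in control samples.

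**Figure D4:**
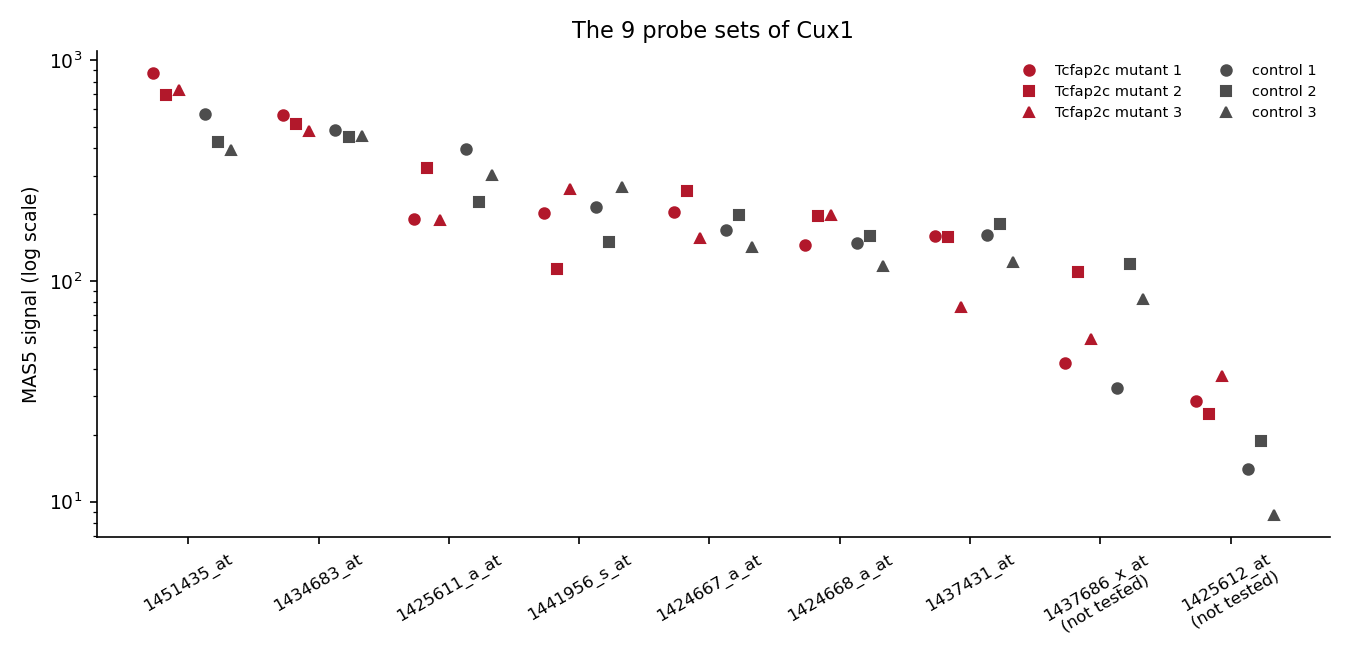
MAS5 signal, on a log axis, of the 9 probe sets of Cux1 in order of mean signal, with Tcfap2c mutant samples (red) left of control samples (grey) and the symbol giving the sample number. The groups are apart at 1451435_at and at the dim 1425612_at and overlap at the other 7.

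Lhx2 and 1451435_at of Cux1 were the tested probe sets whose groups were apart. The start regions of both genes are printed because the mutated factor belongs to the AP-2 family. Edar, whose groups overlapped, is printed as the only member besides Lhx2 with a match to the AP-2 motif given below. RefSeq windows of GRCm38.p6 were matched by symbol for 7 of the 10 genes (Eda, Edar, Edaradd, Lef1, Lhx2, Msx2 and Cux1), 11 start sites in all. The 250 bases before each start were searched on both strands for the AP-2 and Lef/Tcf motifs. For the NF-kB motif only the strand of the gene was searched. The AP-2 motif was spelled GCCNNNGGC, the Lef/Tcf motif CTTTGAA or CTTTGTT, and the NF-kB motif was searched by its usual degenerate consensus. Capitals mark AP-2 matches in Lhx2 and Edar and NF-kB matches in Cux1, and each sequence runs 5′ to 3′ on the strand of its gene. The Lhx2 window is chr2:38351058-38351307 (plus strand), the Edar window chr10:58675697-58675946 (minus strand) and the Cux1 window chr5:136565982-136566231 (minus strand).
Lhx2: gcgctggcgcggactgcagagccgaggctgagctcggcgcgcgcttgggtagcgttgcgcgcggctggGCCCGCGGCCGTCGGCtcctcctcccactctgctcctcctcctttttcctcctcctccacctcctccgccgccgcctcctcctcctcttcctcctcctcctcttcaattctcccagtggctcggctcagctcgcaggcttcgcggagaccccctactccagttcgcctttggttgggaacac
Edar: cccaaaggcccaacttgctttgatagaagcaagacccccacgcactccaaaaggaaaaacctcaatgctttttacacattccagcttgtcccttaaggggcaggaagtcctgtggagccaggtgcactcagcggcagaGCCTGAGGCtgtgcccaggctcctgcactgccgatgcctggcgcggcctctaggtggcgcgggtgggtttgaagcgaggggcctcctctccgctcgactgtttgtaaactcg
Cux1: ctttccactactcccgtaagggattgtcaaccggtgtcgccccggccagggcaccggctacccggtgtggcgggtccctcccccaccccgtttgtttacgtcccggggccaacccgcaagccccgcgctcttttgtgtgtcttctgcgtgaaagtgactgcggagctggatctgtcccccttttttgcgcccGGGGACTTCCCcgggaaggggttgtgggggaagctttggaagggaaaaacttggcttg

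The AP-2 letters stood in 2 of the 11 windows, 2 overlapping matches at 1 of the 2 Lhx2 starts and 1 match at Edar, against 13.7% of the 32851 windows in the table. On the strand of the gene, the NF-kB letters stood in the Cux1 window alone, as 2 overlapping matches, against 4.995% of all windows. The opposite strand was not searched for them. The Lef/Tcf letters, as CTTTGAA or CTTTGTT, stood in 0 of the 11 windows, against 9.17% of all. Other spellings were not searched, among them CTTTGAT, which stands in the printed Edar window. Lhx2, with a difference of -0.64, and Edar, with -0.01, thus both carried AP-2 letters. The windows of Eda, Edaradd, Lef1, Msx2 and Cux1 carried none. A match is a description of these letters and not a site of binding, and the windows do not reach enhancers.

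The other genes of these pathways were read from 1 probe set a gene, the brightest, and 0 of the tested genes in the 6 lists passed an adjusted p of 0.05 in limma. At an unadjusted p under 0.05 the share over all 11589 genes was 3.42%, made of 1.84% lower and 1.58% higher in mutant samples. In the Eda receptor and NF-kB cascade (14 of 21 genes tested) 7 differences were above and 7 below 0, the median was 0.00, and 1 gene was past an unadjusted p of 0.05. That gene was Nfkbia, which encodes the inhibitor IkB alpha and is itself induced by NF-kB, with signals of 10328, 6892 and 6359 in mutant samples, against 5508, 6548 and 4962 in control samples. Mutant sample 1 was the highest and control sample 2 overlapped mutant sample 3, and the log2 difference was 0.44, or 0.23 without mutant sample 1. Traf6, a ubiquitin ligase that Edaradd binds, differed by -0.32, with 500, 576 and 415 in mutant samples, against 640, 606 and 613 in control samples. Nfkb2 differed by 0.29. The receptor Eda2r, which binds another splice form of Eda, did not pass the filter, at 145, 113 and 177 in mutant samples, against 98.1, 80.0 and 68.3 in control samples.

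Among genes that lie downstream of Edar in skin appendages, 11 of 18 were tested, with 5 differences above and 6 below 0 and a median of -0.17, against -0.01 over all genes. At an unadjusted p under 0.05 there were 3 lower (Shh, Ptch1 and Ccnd1) and 1 higher in mutant samples. The higher one was Tgfa, with a difference of 0.55 and overlapping groups, and it was named after its values were seen. Shh, the hedgehog ligand that placode cells secrete, gave 647, 649 and 585 in mutant samples, against 1219, 1237 and 1444 in control samples, a log2 difference of -1.02 (adjusted p = 0.205 in limma, and 0.0272 without mutant sample 1). Its receptor and target Ptch1 differed by -0.50, and the hedgehog effector Gli1, from the list of other transcription factors below, by -0.57. Ccnd1, which encodes cyclin D1 and drives entry into the cell cycle, differed by -0.37. Sostdc1, a secreted BMP and Wnt antagonist of placode margins, differed by -0.17, and its groups overlapped. Fgf20, a placode signal to the dermal condensate, did not pass the filter, at 78.6, 162 and 86.5 in mutant samples, against 63.5, 50.9 and 11.1 in control samples. Without mutant sample 1, Bmp2 passed as well as Shh, and it was named after its values were seen. Bmp2, a BMP ligand of placodes, gave 2225, 719 and 704 in mutant samples, against 1508, 1850 and 1930 in control samples. Mutant sample 1 was the highest of the 6 and the other mutant samples the lowest, and the difference without it was -1.27 (adjusted p = 0.0138 in limma).

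**Figure D5:**
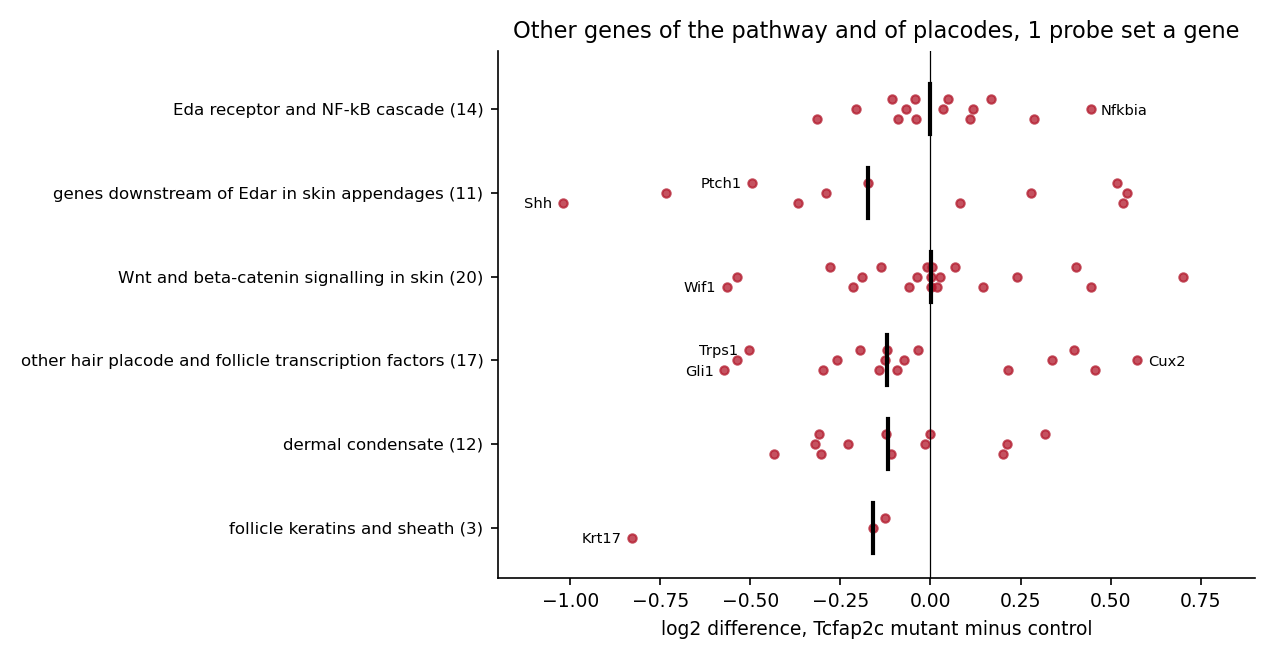
Log2 difference (Tcfap2c mutant minus control) of each tested gene in 6 lists of pathway and follicle genes, 1 probe set a gene, with the number of tested genes in brackets and the median of each list as a black bar. The medians lie between -0.17 and 0.00, and Shh has the lowest difference, -1.02.

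Of the Wnt and beta-catenin genes 20 of 27 were tested, 11 above and 9 below 0, with a median of 0.00 and 2 genes past an unadjusted p of 0.05 in each direction. Wif1, a secreted Wnt inhibitor, gave 1198, 1357 and 1586 in mutant samples, against 2217, 1997 and 1923 in control samples, a log2 difference of -0.57 (adjusted p = 0.942 in limma). Wnt10a, a ligand of placodes and hair matrix, differed by 0.44 and the coreceptor Lrp6 by 0.40, and for both the groups were apart, for Lrp6 narrowly, with 956 in the lowest mutant sample and 955 in the highest control sample. Axin2, a target used to read Wnt activity, gave 777, 957 and 778 in mutant samples, against 716, 667 and 722 in control samples, a difference of 0.24. Ctnnb1, which encodes beta-catenin, differed by 0.03. Wnt10b, another ligand of the placode, was below the filter. Bambi, a decoy receptor of BMP signalling and a target of Wnt, passed without mutant sample 1 and was named after its values were seen, with 659, 1833 and 1860 in mutant samples, against 761, 875 and 765 in control samples. Its difference without that sample was 1.18 (adjusted p = 0.013 in limma), and 0.70 with it.

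Other placode and follicle transcription factors (17 of 25 tested) had 5 differences above and 12 below 0, with a median of -0.12, and 3 lower and 1 higher at an unadjusted p under 0.05. Trps1, a zinc-finger repressor of follicle epithelium and mesenchyme, differed by -0.50. Cux2, the paralogue of Cux1, gave 442, 550 and 590 in mutant samples, against 422, 306 and 314 in control samples, a difference of 0.57 with the groups apart. Msx1, the paralogue of Msx2, differed by 0.46 and Dlx5, a relative of Dlx3, by 0.40, each with overlapping groups. These values stand beside 0.35 for Msx2 and -0.03 for the brighter Dlx3 probe set. Of the dermal condensate genes 12 of 16 were tested, 3 above and 9 below 0, with a median of -0.12. Sox18, a factor of the condensate and of endothelium, differed by -0.43, Sdc1 by 0.20 and Tbx18 by 0.32. Of the follicle keratins and sheath genes 3 of 14 passed the filter. Krt17, a keratin of placodes and outer root sheath, gave 671, 1760 and 1373 in mutant samples, against 2390, 1552 and 2534 in control samples, a difference of -0.83, or -0.44 without mutant sample 1. Krt34 and Tchh differed by -0.13 and -0.16.

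The genes with the profile most like that of 3 members were found by the root mean square distance between log2 values, each gene less its own mean, over the 6 arrays. For Lhx2 they were Krba1 (distance 0.080), Slc25a22 (0.098) and Otulin (0.103), where Lhx2 itself departs from its mean by 0.35. Slc25a22 gave 265, 283 and 253 in mutant samples, against 442, 431 and 497 in control samples, so it too was apart, with a difference of -0.72. For Edar they were 1700097N02Rik (0.071), C1qtnf6 (0.078) and Ckap2l (0.085), and for Dkk4 they were Zfp580 (0.065), Arrdc1 (0.066) and Atg2a (0.069). These 6 had differences between -0.24 and -0.01, and in each of them mutant sample 2 and control sample 1 were the 2 highest samples, as they were for Edar and Dkk4. The genes were picked for this likeness. That the same samples were highest, and that Slc25a22 was apart like Lhx2, is therefore largely fixed by the pick and is no separate result. The likeness rests on 6 arrays that the genes share.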

How the data were processed

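Total RNA of skin was labelled with biotin and hybridised to Affymetrix mouse arrays, per the labels' protocols. The authors' deposited intensity values are linear MAS5 signals, 1 for each probe set. The submitters' processing notes give MAS5 without a version. Every column had a mean of 500 after trimming 2% at each end, so the deposited values were scaled by array, and the array medians lay between 110.4 and 131.5. Detection calls were not used here. Symbols came from GEO's platform annotation and were updated through gene identifiers with RefSeq (GRCm38.p6).

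Signals were taken to log2(signal + 24.4), the pseudocount being the 20th percentile of all values, which compresses fold changes of dim probe sets. After 64 control probe sets were left out, those with a mean log2 above the median were tested (22518). Groups were compared with limma 3.58.1 under R 4.3.3 (linear model and trended eBayes, two-sided tests, Benjamini-Hochberg over all probe sets tested). The fit was tested on simulated data. Probe sets of 1 gene were compared by exact permutation over samples.

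The members, lists, markers and the rule for named genes were chosen with earlier results of these data known. The rule names every member probe set, up to 3 genes of each list with the smallest p, 12 fixed genes and the 3 nearest profiles to Edar, Dkk4 and Lhx2. Alternatives were other pseudocounts, filters, normalizations, variance models, array weights, the replicate number as a block, an Xist covariate, the mean of a gene's probe sets, and each sample left out. Figures were drawn with matplotlib 3.10.9.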

Additional observations from a re-analysis of the deposited data

How the results depend on the processing

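Under 17 other settings no member probe set passed an adjusted p of 0.05 in limma (0 with each, lowest adjusted p 0.115 for Lhx2 and 0.125 for Cux1 1451435_at, both with array weights). Lhx2 lay between -0.73 and -0.50 and Cux1 1451435_at between 0.61 and 0.87, except 0.12 as the mean of the gene's probe sets. The count of all probe sets past the threshold was 106 with array weights, 8 with the replicate block, and 1 to 39 with 1 sample left out (39 without mutant sample 1, 3 without control sample 2, 2 without mutant sample 2). Array weights were 0.26, 0.56 and 3.13 for mutant samples 1, 2 and 3, against 1.21 to 1.38 for control samples. Results with array weights therefore rest largely on mutant sample 3 within the mutant group. The labels give replicate numbers without a shared litter or batch, the correlations of same-numbered samples in their departure from group means were -0.0525, -0.0735 and 0.115, and 2 of 6 samples correlated best with their own number, so the numbers were not taken as a pairing. The block changed no member's call. Members past an unadjusted p of 0.05 were 4 of 20 with array weights (20%), against 11.2% of all probe sets. With the stricter filter 6 member probe sets remained. Of these, 2 (33.3%) were past an unadjusted p of 0.05 in limma, against 3.16% of all, and 2 had groups apart, against 7.96%. Members whose groups did not overlap were 4 of 32 without a filter (12.5%), against 8.9% of all probe sets, and 3 to 6 of 20 with 1 sample left out, against 13.9% to 22.7% of all. The count was 6 without mutant sample 3 (30%, against 17.8%) and 5 without mutant sample 2 (25%, against 20.8%).

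Of 336 member values under alternatives 35 had the other sign, in 12 probe sets, none past the threshold, and the cause was not tested. With array weights these were Eda (0.14), Lef1 1421299_a_at (0.042), Sox9 1451538_at (-0.15), Dlx3 1422037_at (0.40), Cux1 1441956_s_at (0.16) and Cux1 1424667_a_at (-6.65e-05). With the Xist covariate they were Edar (0.024) and Edaradd 1440162_x_at (0.087), and with quantile normalization Edaradd 1440162_x_at (0.020). As means of the gene's probe sets they were Eda (0.063), Edar (0.18) and Edaradd (0.21). With 1 sample left out the differences ranged from -0.33 to 0.19 for Eda, -0.21 to 0.20 for Edar, -0.32 to 0.27 for Edaradd 1440162_x_at, -0.37 to 0.092 for Lef1 1454734_at, -0.49 to 0.23 for Lef1 1421299_a_at, -0.31 to 0.059 for Dkk4, -0.31 to 0.28 for Sox9 1451538_at, -0.32 to 0.11 for Dlx3 1450475_at, -0.54 to 0.30 for Dlx3 1422037_at, -0.38 to 0.15 for Cux1 1441956_s_at and -0.39 to 0.045 for Cux1 1437431_at.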
